A study of Homo sapiens with 9 samples.

Results

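The clustered histone genes were followed across 3 states of NCI-H358, a human lung adenocarcinoma cell line. They are the genes that encode the linker histone H1 and the core histones H2A, H2B, H3 and H4 and lie mostly in tandem clusters. Members were chosen by symbol alone, as H1-1 to H1-6 and every H2AC, H2BC, H3C and H4C gene with a number. The symbol table held 69 such genes and 68 had a row among the 60230 genes measured: 6 for H1, 17 for H2A, 18 for H2B, 12 for H3 and 15 for H4. H3C15 had no row matched to it. Of the 66 members with a position in GENCODE release 29, 53 lay on chromosome 6, 12 on chromosome 1 and 1, H4C16, on chromosome 12.

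Parental cells, labelled sensitive, received no drug. NCI-H358-R, the resistant derivative, came from growth in 250 nM sotorasib, a targeted cancer drug, for about 2 months, and was normally kept in that dose. It was profiled without the drug, for a time that the labels do not give, and 4 days after dosing at 250 nM. Each state had 3 libraries of poly(A) RNA, and all cells grew in medium with 10% serum. The resistant cells are 1 derivative of 1 line, and no drug-treated parental cells were analysed here. In the comparison of on-drug with parental cells, selection and drug therefore cannot be told apart. Off drug against parental cells, selection and taking the drug away cannot be told apart either. The word step below names a comparison and not an order in time. The labels number the libraries without saying whether they came from separate cultures, and p-values measure only the spread between them.

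Histones package DNA into nucleosomes: H3 and H4 form a tetramer, H2A and H2B flank it as dimers, and H1 binds the linker DNA. The clustered genes are known as replication-dependent genes, since most are transcribed in S phase, when new DNA needs new histones. Their messages are known to end in a short stem-loop held by the stem-loop binding protein SLBP instead of a poly(A) tail, although a part of the genes can also give polyadenylated messages from a signal further downstream. The libraries were made by capture on oligo(dT) beads. The values below therefore cover the captured, largely polyadenylated messages of these genes. They give no measure of the stem-loop-ended messages, nor of total histone mRNA.

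The stem-loop itself could be read in the annotated transcripts. The 5 members below are shown because their GENCODE release 29 transcripts hold both the stem-loop and a later polyadenylation signal; each line gives the stem-loop in capitals, defined as the perfect hairpin of a 6-base stem and 4-base loop found in the most members, 5′ to 3′ on the DNA sense strand, with 5 flanking bases on each side.
H2AC19: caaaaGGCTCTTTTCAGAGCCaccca
H2AC25: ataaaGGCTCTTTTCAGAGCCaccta
H2AC6: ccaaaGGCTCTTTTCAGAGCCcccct
H2BC21: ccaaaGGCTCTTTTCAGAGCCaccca
H3C10: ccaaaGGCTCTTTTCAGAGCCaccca
All 5 were chosen for the same 16 bases, so only their flanks differ. The transcript ran on for 35 bases after the stem-loop in H2AC19, 390 in H2AC25, 1128 in H2AC6, 1729 in H2BC21 and 769 in H3C10. The stem-loop letters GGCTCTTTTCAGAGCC were present in a transcript of 16 of the 66 members with a release 29 transcript. Hairpins of the same form with other letters were rarer: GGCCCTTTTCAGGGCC in 5 members, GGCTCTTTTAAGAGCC in 4 and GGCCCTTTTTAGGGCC in 3. Among all 17082 tested genes with a release 29 transcript, 0.0761% held the most common form. A polyadenylation signal, AATAAA or ATTAAA within the last 50 bases of a transcript, was present in 22 of the 66 members, and 11 members had both elements. By the same search 84.0% of the 17082 tested genes held the signal. Both searches read the sense strand only and the motifs do not overlap; a missing match says only that these letters are not in the annotated model.

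**Figure D1:**
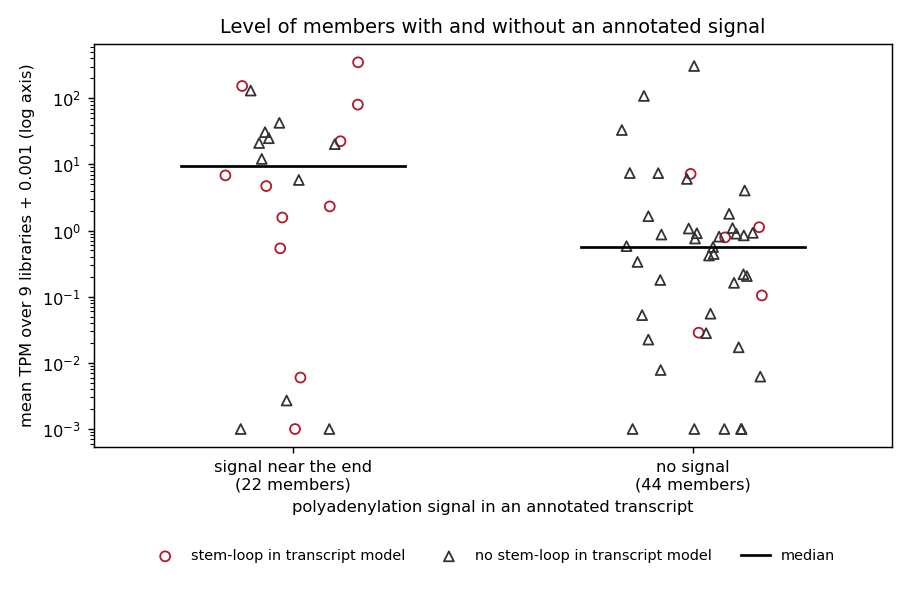
Mean TPM (a transcript level scaled for gene length and library depth) over 9 libraries, on a log axis with 0.001 added, for the 66 members with a release 29 transcript. Members are split by a polyadenylation signal near the end of a transcript, circles mark a stem-loop in a transcript, and bars mark medians; the median of the 22 members with a signal was 9.47 TPM and that of the other 44 was 0.572 TPM.

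Members with an annotated signal made up most of the highly measured ones, as the plot by annotated signal shows. Of the 22 with a signal, 11 had a mean of at least 10 TPM, against 3 of the 44 without one. Those 3 were H2BC12, H1-2 and H4C3. No test was made of this split, since a transcript model may have been drawn from the same kind of poly(A) data.

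Promoters are shown for members on which the comparisons turn: H2BC12, the most abundant H2B gene; H2BC11 and H2BC4, which rose off drug; H2BC26, which rose on drug; and H1-2, the leading linker histone. Each line gives the 200 bases before the RefSeq start site on GRCh38.p14, read 5′ to 3′ on the gene's strand. Capitals mark the octamer ATTTGCAT, the CCAAT box CCAAT, the TATA box TATAAA and the H1 box AAACACA on either strand, with no overlap between different motifs in these stretches.
H2BC12, chr6:27146859-27147058, minus strand: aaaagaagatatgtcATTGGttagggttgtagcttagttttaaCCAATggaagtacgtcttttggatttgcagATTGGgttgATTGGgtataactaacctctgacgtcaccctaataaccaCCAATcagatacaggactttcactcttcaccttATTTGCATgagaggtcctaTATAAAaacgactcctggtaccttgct
H2BC11, chr6:27132796-27132995, minus strand: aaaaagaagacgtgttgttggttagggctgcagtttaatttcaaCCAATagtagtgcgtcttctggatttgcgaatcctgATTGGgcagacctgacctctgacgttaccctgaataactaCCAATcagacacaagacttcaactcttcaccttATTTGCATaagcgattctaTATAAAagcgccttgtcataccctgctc
H2BC4, chr6:26123927-26124126, minus strand: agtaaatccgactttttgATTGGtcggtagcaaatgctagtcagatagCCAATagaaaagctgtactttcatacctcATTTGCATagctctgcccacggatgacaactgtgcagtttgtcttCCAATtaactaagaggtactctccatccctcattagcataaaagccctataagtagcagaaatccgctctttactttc
H2BC26, chr1:228457903-228458102, plus strand: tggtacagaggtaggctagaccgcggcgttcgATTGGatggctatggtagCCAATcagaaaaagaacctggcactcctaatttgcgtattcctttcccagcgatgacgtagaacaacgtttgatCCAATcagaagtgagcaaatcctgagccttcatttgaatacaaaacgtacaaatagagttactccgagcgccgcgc
H1-2, chr6:26056471-26056670, minus strand: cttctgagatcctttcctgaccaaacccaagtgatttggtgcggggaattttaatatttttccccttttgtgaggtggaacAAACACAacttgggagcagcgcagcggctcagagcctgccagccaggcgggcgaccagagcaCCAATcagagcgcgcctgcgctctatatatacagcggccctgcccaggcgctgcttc
In H2BC12 and H2BC11 the octamer began 46 and 47 bases before the start and the TATA box 27 and 28 bases before it. The octamer of H2BC4 lay 123 bases before its start. H2BC26 held 3 CCAAT boxes and no exact octamer, and H1-2 held the H1 box 119 bases and a CCAAT box 57 bases before its start. Over windows of 250 bases before to 50 after the start, 63 members had a RefSeq sequence. The octamer was found in 14 of 18 H2B and 11 of 16 H2A windows, in 1 of 10 H3 windows and in none of the 6 H1 or 13 H4 windows, against 2.2% of 27305 genes. The H1 box was found in 6 of 6 H1 windows and in 6.9% of all genes. A CCAAT box was found in 53 of the 63 members and 39.7% of all genes, and a TATA box in 42 members and 14% of all genes. These matches describe the letters of the windows and were not compared with the changes below.

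The libraries held 25698500 to 34727826 estimated counts. Of the 8 epithelial markers listed, the summed level was 4290.5 to 5162 TPM in parental cells, 4291 to 4877 TPM off drug and 3091 to 4071 TPM on drug, and EPCAM was present in every library. EPCAM fell off drug by 1.00 ± 0.08 (SE, adjusted p = 6.71e-08) on the log2 scale, and 5 of the 8 were called lower on drug than in parental cells, with 3 higher. The 5 leukocyte markers summed to 38 to 42.6 TPM in parental cells, 49.7 to 60.9 TPM off drug and 7.42 to 8.2 TPM on drug. Most of that was CD68, a lysosomal protein that is not limited to macrophages, which fell on drug from off drug by 3.47 ± 0.10 (SE, adjusted p = 8.30e-14), while PTPRC and CD3E stayed under 1 TPM in every library. The 5 endothelial markers summed to 1.73 to 2.41 TPM in parental cells, 6.78 to 9.82 TPM off drug and 3.33 to 4.75 TPM on drug. Of them TIE1, PECAM1 and KDR were called higher off drug than in parental cells, and on drug 2 were higher and 3 lower than off drug. Fibroblast markers moved with the on-drug state: 4 of the 5 could be tested, and all 4 were called higher on drug than in either other state. Outside the on-drug state COL3A1 was at 0 in every library and COL1A2 at 0.042 TPM or less. Their place among the tested genes depends on that state, so these 2 calls are descriptions only. The summed level of the 5 was 7.98 to 10.3 TPM in parental cells, 5.14 to 6.73 TPM off drug and 77.0 to 97.8 TPM on drug. LUM made up most of it, at a mean of 69.4 TPM on drug. For comparison, 28.4% of all genes were called higher and 26.6% lower off drug than in parental cells. The shares were 31.4% and 31.2% on drug over off drug, and 33.4% and 32.9% on drug over parental cells. The part of these markers in the histone values was not tested. The scaling factor of the on-drug libraries, 1.11 to 1.12, also lay above the 0.917 to 0.972 of the other 6.

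Captured histone messages came from few genes. H2AC19, which encodes an H2A of the chromosome 1 cluster, had a mean of 349.7 TPM over the 9 libraries. It was followed by H2BC12 at 307, H2AC25 at 154, H4C14 at 131 and H1-2 at 109 TPM. Together these 5 held 73.2 to 75.4% of the summed member TPM in every library, and the leading 10 held 87.8 to 91.5%. A mean of at least 10 TPM was reached by 14 members, and of at least 1 TPM by 31. No H3 gene reached a mean of 10 TPM. A further 8 members were at 0 in all 9 libraries: H2AC18, H2BC10, H2BC14, H3C7, H3C8, H4C5, H4C6 and H4C7.

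**Figure D2:**
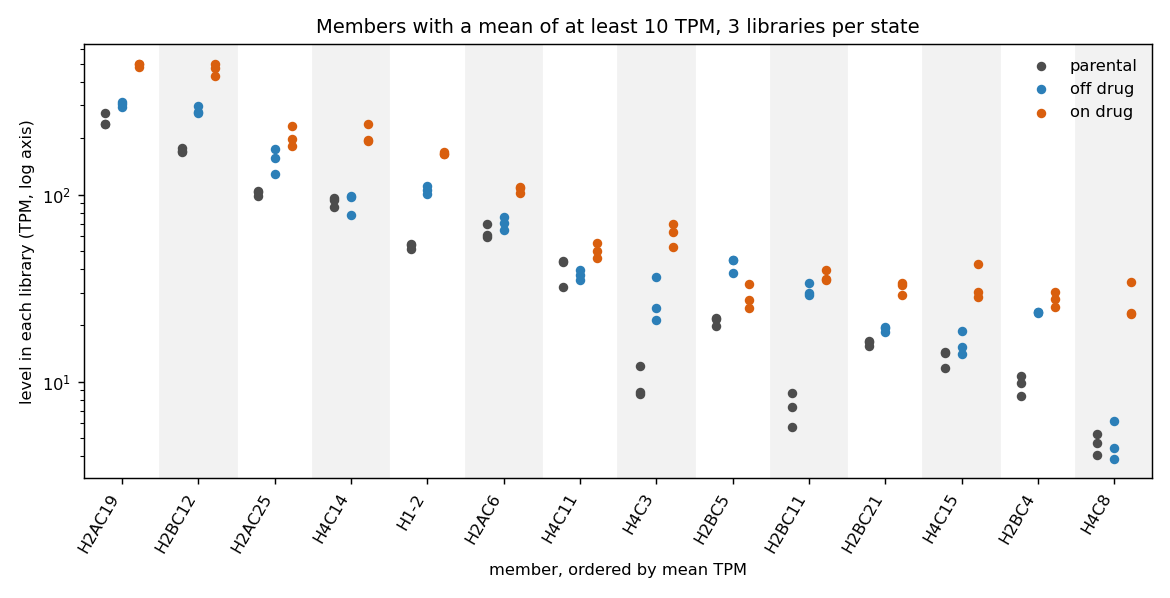
Level in each library (TPM, log axis) of the 14 members with a mean of at least 10 TPM, 3 points per state. The on-drug points of H4C8 sit between 22.9 and 34.1 TPM, above all parental and off-drug points, while the off-drug points of H2BC5 lie above its on-drug and parental points.

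The order of levels can be read between neighbours in the plot of levels by library. In TPM, H2AC19 read 239, 238 and 274 TPM in parental cells, 304, 295 and 314 TPM off drug and 482, 501 and 501 TPM on drug. H2BC12 read 169, 171 and 178 TPM in parental cells, 296, 275 and 273 TPM off drug and 497, 432 and 475 TPM on drug. In parental cells every H2AC19 library was above every H2BC12 library, and off drug and on drug the ranges of these 2 genes overlapped. H2AC25 stood next, with 103, 98.7 and 105 TPM in parental cells, 157, 129 and 176 TPM off drug and 182, 234 and 197 TPM on drug. H4C14 read 94.0, 96.3 and 85.9 TPM in parental cells, 98.2, 78.3 and 96.9 TPM off drug and 193, 238 and 196 TPM on drug. Parental libraries of the latter were lower than those of H2AC25 without overlap, and on drug their ranges overlapped.

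Some of these genes cannot be told from a near-identical copy. Of the stretches of 31 bases in its release 29 transcripts, H2AC19 shares 97.2% with H2AC18, which was at 0, so the H2AC19 value may belong to either or both. H4C14 shares 88.8% with H4C15, H2BC12 shares 74.4% with the gene annotated as H2BFS, and H3C14 shares 100% with the copy that became H3C15. H4C12 shares all of its stretches with H4C11, and H2AC13 shares 63.8% with H2AC14. H2AC17 and H3C12 overlap on the same strand and 87.1% of the stretches of H2AC17 lie in H3C12. Exons of H4C14 and H3C14 overlap on opposite strands, as do those of H4C15 and the H3C15 copy, and no strand setting is given in the sources used here. H1-2, H4C3, H4C8, H2AC6 and H2AC25 are nearly free of shared stretches, at 99.2, 100, 98.8, 98.2 and 95.6% unique. The submitters' annotation release is not given, so these shares are approximate.

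Summed over all 68 members, the level was 901 ± 24.8 TPM in parental cells, 1263 ± 52.8 TPM off drug and 2073 ± 36.8 TPM on drug (SD, n = 3 each). The 3 states did not overlap. The off-drug sum was 1.40 times the parental one and the on-drug sum 1.64 times the off-drug one. In CPM, a level scaled by library size alone and not by length, the same ratios were 1.24 and 1.63. TMM, the correction for library composition used in the single-gene tests, was applied to neither sum. Its factors were 1.11 to 1.12 on drug and 0.917 to 0.972 in the other libraries, and would lower the on-drug ratio in CPM. In bulk RNA, more cells in S phase and more histone RNA per cell cannot be told apart.

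**Figure D3:**
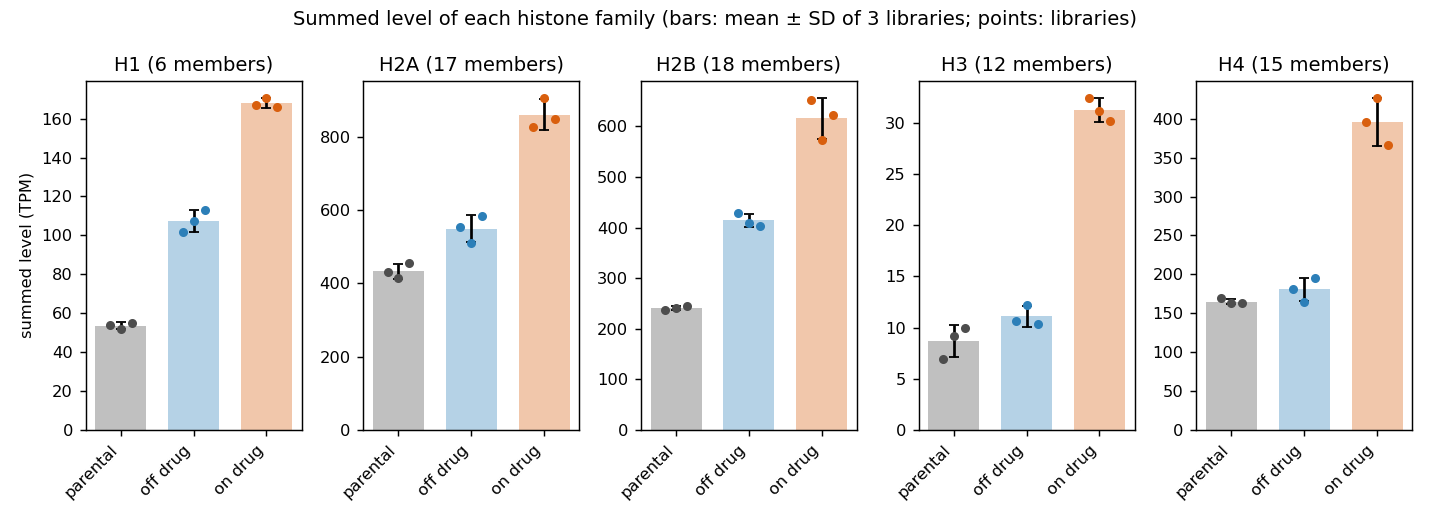
Summed TPM of the members of each family in parental, off-drug and on-drug cells; bars are means with SD of 3 libraries and points are the libraries, on separate linear axes from 0. H1 and H2B already stand higher off drug, at 107 and 414 TPM against 53.6 and 241 TPM, whereas H3 and H4 rise mainly on drug, to 31.3 and 396 TPM.

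The families did not share 1 course, as the plot of family sums shows. H1 went from 53.6 ± 1.77 TPM in parental cells to 107 ± 5.65 off drug and 168 ± 2.44 on drug. H2A went from 433 ± 20.9 to 550 ± 37.5 and 862 ± 41.9 TPM, and H2B from 241 ± 4.08 to 414 ± 13.3 and 616 ± 40.7 TPM. The H3 sum was 8.68 ± 1.60 TPM in parental cells, 11.1 ± 0.995 off drug and 31.3 ± 1.14 on drug. The H4 sum was 165 ± 3.64, 181 ± 15.2 and 396 ± 30.7 TPM. Between off-drug and parental cells the ratio of the sums was 2.01 for H1, 1.72 for H2B, 1.27 for H2A, 1.28 for H3 and 1.09 for H4. Between on-drug and off-drug cells it was 2.82 for H3 and 2.20 for H4, against 1.49 to 1.57 for the other 3. The family ratios, too, are without the TMM correction. By library-size CPM the off-drug ratios of H3 and H4 were 1.02 and 0.988, so their small TPM differences off drug rest on the scale used.

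Single genes were tested with edgeR across all 17307 genes that passed a filter on low counts, and a gene was called where its Benjamini-Hochberg adjusted p was below 0.05. Of the 68 members 38 passed the filter. The 30 that did not were 3 of H1, 9 of H2A, 6 of H2B, 5 of H3 and 7 of H4. Of those, 6 reached 10 counts in a library: H2AC14, H2AC15, H2AC16, H2AC21, H4C1 and H4C2. Among the tested members 7 (H2AC1, H2BC6, H2BC13, H2BC17, H3C1, H3C12 and H4C16) reached the filter's minimum of 0.315 CPM in all libraries of the on-drug state and of no other state, so their place among the tested genes itself depends on that state. Their on-drug differences are given below as descriptions, without a p-value, and the on-drug counts lead with the other 31. Of these 31, H1-5 and H3C13 reached the minimum in all libraries of no state, so their place rests on a mix of states, on-drug libraries included. H1-4, H3C2 and H3C3 reached it in both resistant states but not in all parental libraries.

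The first comparison set resistant cells off drug against parental cells, and asks what differs in the derivative without the drug. H1-2, the low-count genes H1-4 and H1-5, and a set of H2B genes were called higher, while most H2A, H3 and H4 genes were not called. Of the 38 tested members 13 were called higher and 0 lower. Over all genes 28.4% were called higher and 26.6% lower, so the share of members called higher (34.2%) was near the background, and no member was among the lower calls. At an unadjusted p under 0.05 edgeR put 1 member lower, and DESeq2 called 0 lower. With 1 library left out, 1 to 3 members were called lower, among them H2BC13 without parental replicate 3, H3C10 without off-drug replicate 1, H4C11 without parental replicate 2, and H4C12 and H4C16 without off-drug replicate 2. The 13 were H1-2, H1-4, H1-5, H2AC17, H2AC25, H2BC4, H2BC5, H2BC11, H2BC12, H2BC15, H2BC17, H3C2 and H4C3. At least 2-fold rises were seen in 8, where 7.49% of all genes did. Of these 8, H1-4, H1-5, H2BC17 and H3C2 did not reach the filter's minimum in all parental libraries. Their place among the tested genes depends on the resistant libraries, where they are higher. With a filter of at least 50 counts in 3 libraries, 9 of 24 members were called higher and 0 lower, against 30.7 and 31.3% of all genes. The median log2 fold change of the tested members was 0.23 and that of all tested genes 7e-04. Leaving out each library in turn, 8 of the 13 kept their call every time. H2AC25 lost it without off-drug replicate 3 (0.32, adjusted p = 0.0819), as did H2AC17 (0.83, adjusted p = 0.0534), while H2BC17 and H3C2 lost it without more than 1 of the libraries. H1-5 lost it without parental replicate 1 or 2 and without any 1 of the off-drug libraries. DESeq2 did not call H1-5 either (adjusted p = 0.0537).

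Resistant cells on drug against the same cells off drug give the change with the drug present. Here genes of all 4 core families were higher, and 2 H2B genes were lower. Of the 31 tested members left after setting aside the 7 that reached the filter's minimum only on drug, 18 were higher and 2 lower. Across all genes 31.4% were called higher and 31.2% lower, and the shares of these members were 58.1 and 6.45%. The higher calls covered 1 of 3 H1, 5 of 7 H2A, 4 of 9 H2B, 3 of 5 H3 and 5 of 7 H4 genes, and differences between families were not tested. The H4 calls include H4C12, whose reads cannot be told from those of H4C11. Rises of at least 2-fold were seen in 8 of the 31, against 13.5% of all genes. The median of the 31 was 0.51, against 0.02 for all genes. With the 7 members that reached the minimum only on drug, the counts were 24 higher and 2 lower of 38. Of these 26 calls 21 held whichever library was left out. Calls of H2BC18 (without off-drug replicate 3, 0.62, adjusted p = 0.0672), H3C1, H3C3, H3C12 and H4C16 did not, H3C1 because it fell below the filter in 1 of the fits.

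Set against untreated parental cells, resistant cells on drug had 25 of the 31 members higher and 0 lower, or 30 and 0 of all 38 tested. Among all genes 33.4% were higher and 32.9% lower. At an unadjusted p under 0.05 edgeR put 0 members lower, DESeq2 called 0 lower, and without parental replicate 2 edgeR called 1 lower, H4C11. Of the 31, all 3 H1 and all 7 H2A genes were called, with 6 of 9 H2B, 4 of 5 H3 and 5 of 7 H4 genes. Among these calls, H1-4, H1-5, H3C2 and H3C3 did not reach the filter's minimum in all parental libraries. H4C12, also called, shares all of its sequence stretches with H4C11. The median of the 31 was 1.07 (all genes 0.02), and 17 rose at least 2-fold where 13.4% of all genes did. The 8 members of the 38 not called were H2BC1, H2BC5, H2BC13, H2BC15, H3C13, H4C9, H4C11 and H4C16. This contrast spans both the selection and the drug, and it shares its libraries with the other 2 comparisons. The call held in every leave-one-out fit for 25 of the 30, and failed in at least 1 for H1-5, H2AC20, H3C1, H3C3 and H4C12.

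**Figure D4:**
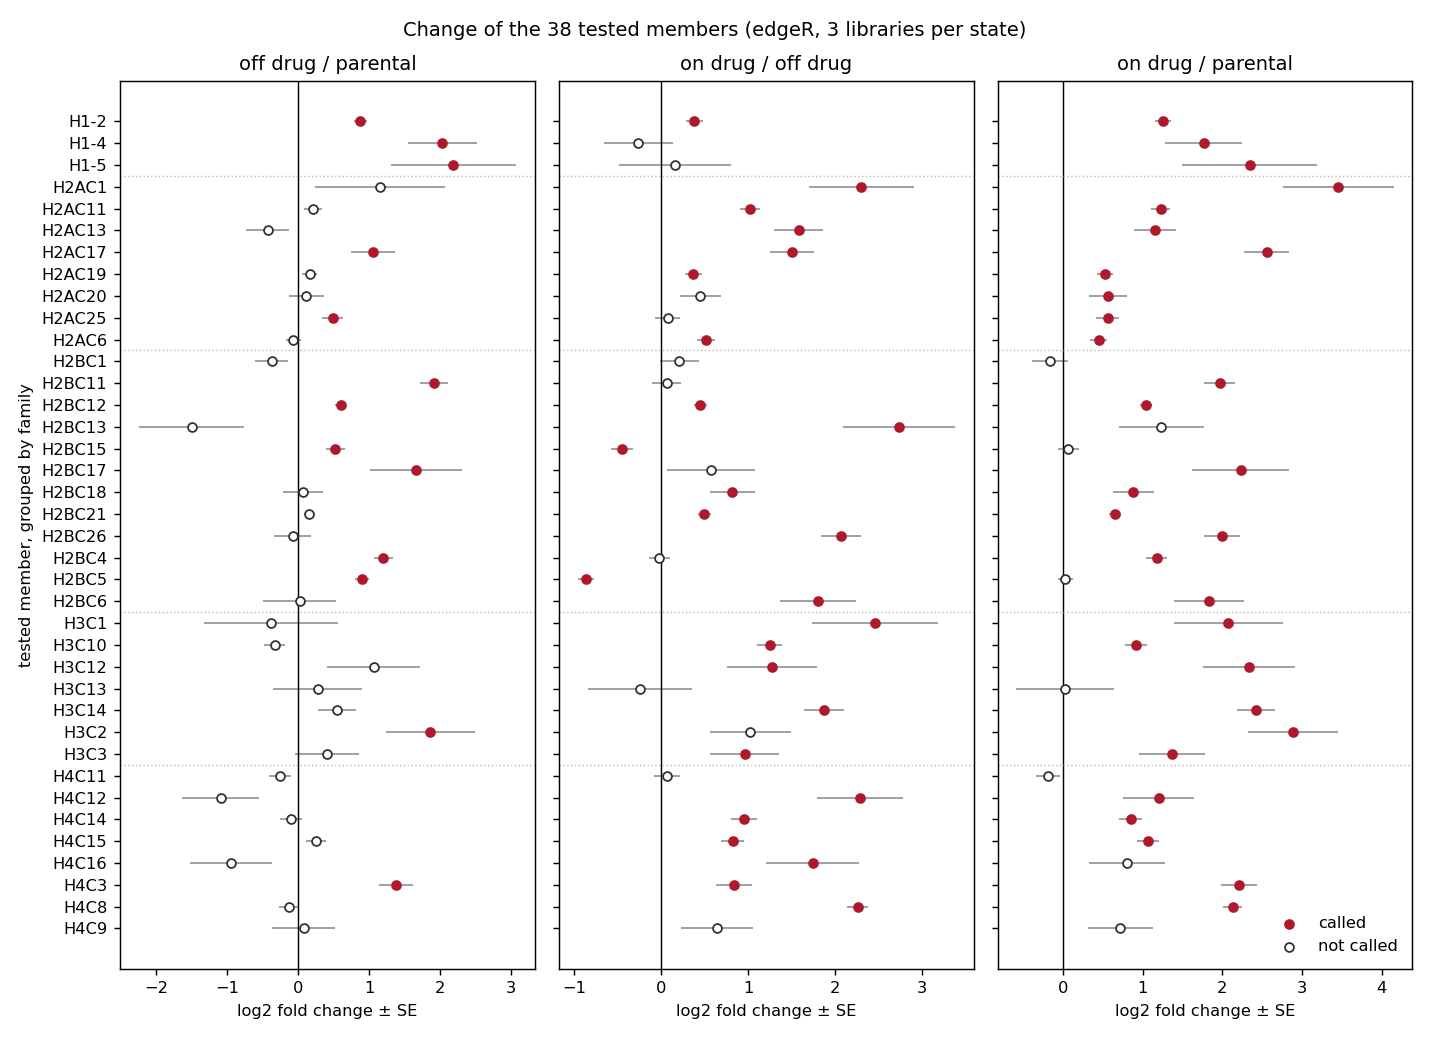
Log2 fold change with SE of the 38 tested members in the 3 comparisons, grouped by family with dotted lines; filled points were called by edgeR (adjusted p under 0.05) and open points were not. Off drug against parental the called points are 13, all to the right of 0; H2BC5 and H2BC15 are the 2 called points to the left of 0 on drug against off drug.

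Members fell into different courses, as the plot of fold changes shows. At both steps 4 were called higher: H1-2, H2AC17, H2BC12 and H4C3. Off drug but not at the on-drug step 9 were called higher: H1-4, H1-5, H2AC25, H2BC4, H2BC5, H2BC11, H2BC15, H2BC17 and H3C2. At the on-drug step but not off drug 20 were called higher, namely H2AC1, H2AC6, H2AC11, H2AC13, H2AC19, H2BC6, H2BC13, H2BC18, H2BC21, H2BC26, H3C1, H3C3, H3C10, H3C12, H3C14, H4C8, H4C12, H4C14, H4C15 and H4C16. Of these 20, H2AC1, H2BC6, H2BC13, H3C1, H3C12 and H4C16 reached the filter's minimum only on drug. The other 5, H2AC20, H2BC1, H3C13, H4C9 and H4C11, were called higher at neither step. A call at 1 step and not at the other was not tested as a difference between steps.

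Among the linker histones H1-2 was by far the best measured. It read 34.4, 31.5 and 35.9 CPM in parental cells, 57.3, 59.0 and 70.6 CPM off drug and 76.0, 88.3 and 79.2 CPM on drug, in CPM after TMM scaling (a correction for library composition used for every CPM value of a single gene here). The 3 states were separate, lowest in parental cells and highest on drug. H1-2 rose 1.84-fold off drug over parental cells, a log2 fold change of 0.88 ± 0.10 (SE, adjusted p = 1.63e-06), and a further 1.30-fold on drug, 0.38 ± 0.09 (SE, adjusted p = 0.00249). H1-4 and H1-5 were near the detection limit. The counts of H1-4 were 7, 2 and 6 in parental cells, 14, 26 and 20 off drug and 27, 26 and 18 on drug. Parental counts were the lowest, and the 2 resistant states overlapped. H1-4 rose off drug by 2.03 ± 0.48 (SE, adjusted p = 0.00215), and its on-drug change of -0.26 ± 0.40 (SE, adjusted p = 0.579) was not called. Its parental libraries did not all reach the filter's minimum, so the off-drug test depends on the resistant libraries, where H1-4 is higher. H1-5 had 0, 1 and 4 in parental cells, 5, 5 and 14 off drug and 16, 17 and 4 on drug counts, and its off-drug rise of 2.18 ± 0.88 (SE, adjusted p = 0.0467) rested on a parental sum of 5 counts. The ratio of the summed counts was 4.90, with an exact 95% interval of 1.83 to 16.4 that covers counting error only. H1-1, H1-3 and H1-6 were not tested.

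H2A genes were mostly called on drug and not off drug. H2AC19 read 97.9, 92.5 and 113 CPM in parental cells, 108, 104 and 126 CPM off drug and 132, 160.1 and 145 CPM on drug. Parental and off-drug libraries overlapped and the on-drug ones lay above both. Its rise on drug was 0.37 ± 0.10 (SE, adjusted p = 0.00484), and the off-drug difference of 0.16 ± 0.10 (SE, adjusted p = 0.19) was not called. Without parental replicate 3 that difference was 0.25 (adjusted p = 0.0493), and on the log2(TPM + 1) scale 0.28 (limma, adjusted p = 0.00516). H2AC25, from a small cluster on chromosome 1, read 83.6, 75.7 and 85.3 CPM in parental cells, 114, 88.8 and 139.5 CPM off drug and 99.7, 147 and 114 CPM on drug. Its parental libraries were lowest and the resistant states overlapped widely. It rose off drug by 0.49 ± 0.15 (SE, adjusted p = 0.0112), the call that off-drug replicate 3 decides, and differed by 0.07 ± 0.15 (SE, adjusted p = 0.683) on drug over off drug. That last difference was called on other scales, at 0.33 with library size only (adjusted p = 0.0496) and 0.41 on log2(TPM + 1) (limma, adjusted p = 0.00831). H2AC6 gave 56.2, 51.4 and 51.8 CPM in parental cells, 49.2, 45.2 and 57.6 CPM off drug and 66.4, 82.8 and 68.1 CPM on drug. The on-drug libraries of H2AC6 were the highest and the other states overlapped. Its on-drug rise was 0.51 ± 0.10 (SE, adjusted p = 0.000455). H2AC11 rose in this step by 1.02 ± 0.12 (SE, adjusted p = 1.29e-06) and H2AC13 by 1.58 ± 0.28 (SE, adjusted p = 0.000132). Only 36.2% of the sequence stretches of H2AC13 are unique, so its reads may partly come from other genes.

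H2AC17 and H2AC1 had the largest H2A changes against parental cells, at low levels. H2AC17 stood at 0.425, 0.561 and 0.447 CPM in parental cells, 0.873, 0.819 and 1.25 CPM off drug and 2.51, 3.31 and 2.61 CPM on drug, with no overlap between the states. It rose by 2.55 ± 0.28 (SE, adjusted p = 8.26e-07) on drug over parental cells, and its reads cannot be separated from those of H3C12. H2AC1, a histone gene known from testis, had 1, 1 and 2 in parental cells, 4, 4 and 1 off drug and 19, 33 and 13 on drug counts. The on-drug counts stood above all others. With 4 counts in the parental sum, the ratio of on-drug to parental summed counts was 11.7, with an exact 95% interval of 4.37 to 44.4, and on drug to off drug it was 5.11 (2.53 to 11.7). Its fitted log2 fold changes were 3.45 and 2.30, and H2AC1 was among the genes tested only through its on-drug counts. H2AC20 was called on drug over parental cells, at 0.56 ± 0.24 (SE, adjusted p = 0.0472), a call that was lost in 5 of the 6 fits that left out 1 library. Over off drug its difference was 0.45 and not called, but was 0.70 (adjusted p = 0.0142) with library size only.

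H2B genes showed the most divided picture. H2BC12 read 58.5, 56.3 and 62.7 CPM in parental cells, 90.1, 84.4 and 94.0 CPM off drug and 122, 121 and 123 CPM on drug. The 3 states were separate in every library. H2BC12 rose by 0.60 ± 0.08 (SE, adjusted p = 8.07e-06) off drug and by 0.45 ± 0.08 (SE, adjusted p = 9.42e-05) on drug over off drug. H2BC11, its neighbour in the cluster, read 1.90, 1.96 and 3.54 CPM in parental cells, 8.61, 8.27 and 10.8 CPM off drug and 9.44, 10.4 and 9.06 CPM on drug. All 6 resistant libraries stood above all parental ones, and the resistant states overlapped. It rose 3.75-fold off drug, or 1.91 ± 0.20 (SE, adjusted p = 7.69e-07), and its on-drug difference from that level was 0.06 ± 0.17 (SE, adjusted p = 0.779). H2BC4 followed the same course, with 4.09, 4.25 and 3.65 CPM in parental cells, 9.01, 8.68 and 9.76 CPM off drug and 7.82, 9.53 and 9.70 CPM on drug. It rose by 1.20 ± 0.13 (SE, adjusted p = 1.54e-06) off drug and differed by -0.02 ± 0.12 (SE, adjusted p = 0.881) on drug.

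H2BC5 was higher off drug than in either other state. It read 12.2, 11.4 and 11.5 CPM in parental cells, 22.3, 22.1 and 20.9 CPM off drug and 13.1, 11.3 and 11.3 CPM on drug. Every off-drug library was above every other one, and the parental and on-drug ranges overlapped. The gene rose by 0.90 ± 0.10 (SE, adjusted p = 9.80e-07) off drug, fell by 0.87 ± 0.09 (SE, adjusted p = 6.84e-07) on drug, and on drug differed from parental cells by 0.03 ± 0.10 (SE, adjusted p = 0.824). On the log2(TPM + 1) scale that last difference was 0.40 (limma, adjusted p = 0.00774), so the likeness of its on-drug and parental levels rests on the scale. H2BC15 had the same direction at lower level, with 4.64, 5.41 and 6.03 CPM in parental cells, 7.34, 7.86 and 7.80 CPM off drug and 5.91, 5.20 and 5.67 CPM on drug. The off-drug libraries were again highest. It rose by 0.52 ± 0.13 (SE, adjusted p = 0.00359) and fell by 0.46 ± 0.13 (SE, adjusted p = 0.00616). With no scaling beyond library size the on-drug difference was -0.20 and not called (adjusted p = 0.186), and exons of H2BC15 overlap those of 2 H2A genes.

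H2BC26 and H2BC21 were called on drug and not off drug. H2BC26, which lies beside H2AC25, read 0.785, 0.761 and 1.00 CPM in parental cells, 0.714, 0.901 and 0.802 CPM off drug and 3.45, 3.44 and 3.29 CPM on drug. Parental and off-drug libraries overlapped, and the on-drug ones were all above 3 CPM. It rose 4.20-fold on drug over off drug, 2.07 ± 0.23 (SE, adjusted p = 9.63e-07). H2BC21 read 32.5, 31.1 and 31.8 CPM in parental cells, 35.7, 34.4 and 36.2 CPM off drug and 50.1, 47.6 and 51.8 CPM on drug. The on-drug libraries lay above all others. Its rise was 0.49 ± 0.08 (SE, adjusted p = 3.39e-05), from an off-drug difference of 0.16 ± 0.08 (SE, adjusted p = 0.0986) that was 0.23 (limma, adjusted p = 0.0471) on the log2(TPM + 1) scale. H2BC18 rose by 0.82 ± 0.26 (SE, adjusted p = 0.0127) in that step. Among scarce members H2BC13 had 9, 8 and 1 in parental cells, 2, 2 and 2 off drug and 23, 20 and 16 on drug counts, and its on-drug counts were the highest. The ratio of on-drug to off-drug sums was 6.96 (exact 95% interval 3.02 to 19.7), and the fitted log2 fold change was 2.73. That of H2BC6 was 1.81. Both genes were tested only through their on-drug counts. H2BC17 rose off drug by 1.66 ± 0.65 (SE, adjusted p = 0.0405), a call lost in 4 of 6 fits that left out 1 library. H2BC1 was called by edgeR in no comparison, with differences of -0.37, 0.21 and -0.17. On the log2(TPM + 1) scale its on-drug difference from off drug was 0.41 (limma, adjusted p = 0.0221). Its on-drug difference from parental cells had the opposite sign on that scale, at 0.15, and with library size only, at 0.058, neither called.

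H3 messages were scarce throughout. Leaving out those that reached the filter's minimum only on drug, 3 of 5 were called higher on drug than off drug. H3C10 read 4.38, 4.69 and 5.66 CPM in parental cells, 4.56, 3.64 and 3.53 CPM off drug and 9.15, 8.96 and 9.68 CPM on drug. The on-drug libraries were highest, and the other states overlapped. It rose by 1.25 ± 0.14 (SE, adjusted p = 1.45e-06) on drug over off drug. The off-drug difference from parental cells, -0.33 ± 0.15 (SE, adjusted p = 0.0756), was not called, but was -0.45 (adjusted p = 0.0347) without off-drug replicate 1. H3C14 stood at 1.64, 1.84 and 0.782 CPM in parental cells, 1.59, 2.13 and 2.47 CPM off drug and 7.48, 8.37 and 6.99 CPM on drug. Its on-drug libraries were again far above the rest. It rose 3.66-fold, 1.87 ± 0.23 (SE, adjusted p = 3.08e-06), with the limit that its reads may also come from H3C15 or the H4C14 strand.

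H3C2 had 0, 6 and 5 in parental cells, 12, 10 and 19 off drug and 32, 47 and 38 on drug counts. The states did not overlap. It rose by 1.86 ± 0.62 (SE, adjusted p = 0.0186) off drug, a call lost when parental replicate 1 was left out (1.22, adjusted p = 0.06) or when off-drug replicate 3 was (1.68, adjusted p = 0.0642). Its difference on drug over off drug, 1.03 ± 0.46 (SE, adjusted p = 0.066), was not called, but was with library size only (1.28, adjusted p = 0.0238) and with no filter (1.08, adjusted p = 0.0309). On drug it stood 2.89 ± 0.57 (SE, adjusted p = 0.000315) over parental cells, a ratio of summed counts of 7.68 (exact 95% interval 4.14 to 15.8). Not all parental libraries of H3C2 reached the filter's minimum. Both of its tests against parental cells therefore depend on the resistant libraries, where it is higher. H3C1 counts were 2, 1 and 5 in parental cells, 0, 2 and 4 off drug and 11, 24 and 13 on drug, with the on-drug ones highest. The ratio of on-drug to off-drug sums was 5.67 (2.42 to 16.2), in a gene tested only through its on-drug counts. H3C3 read 0.164, 0.441 and 0.335 CPM in parental cells, 0.357, 0.450 and 0.417 CPM off drug and 0.942, 0.807 and 0.647 CPM on drug, with only the on-drug libraries apart. It rose by 0.96 ± 0.39 (SE, adjusted p = 0.0446) in this step, a call lost in all 6 fits that left out 1 library. H3C12, also tested only through its on-drug counts, had a fitted difference of 1.27 in that step, whose call was lost in 5 of these fits. H3C13 was called in no comparison.

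Among H4 genes the on-drug rise was common and the off-drug rise rested on H4C3. H4C14, the most abundant, read 56.3, 53.4 and 54.0 CPM in parental cells, 57.1, 39.5 and 55.8 CPM off drug and 78.7, 123 and 92.7 CPM on drug. The parental and off-drug libraries overlapped and the on-drug libraries were higher. It rose by 0.95 ± 0.15 (SE, adjusted p = 4.08e-05). Its copy H4C15 read 17.7, 18.6 and 16.8 CPM in parental cells, 17.3, 24.4 and 21.3 CPM off drug and 45.4, 33.6 and 32.3 CPM on drug, with the on-drug libraries again apart, and rose by 0.82 ± 0.13 (SE, adjusted p = 6.43e-05). With both copies summed, the on-drug rise was 0.91 (adjusted p = 8.79e-07) and the off-drug difference -0.01 (adjusted p = 0.949). H4C8 showed the largest change on drug among the H4 genes with a mean of at least 10 TPM, at 3.60, 3.65 and 3.35 CPM in parental cells, 3.02, 3.52 and 3.15 CPM off drug and 14.4, 16.3 and 15.7 CPM on drug. The on-drug libraries stood alone and the others overlapped. H4C8 rose 4.80-fold, 2.26 ± 0.12 (SE, adjusted p = 1.88e-10), after an off-drug difference of -0.13 ± 0.13 (SE, adjusted p = 0.429).

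H4C3 was the 1 H4 gene called at both steps. It read 2.03, 1.88 and 2.83 CPM in parental cells, 4.80, 4.30 and 8.25 CPM off drug and 10.8, 11.5 and 8.90 CPM on drug. The 3 states were separate, though off-drug replicate 3 stood well above the other 2 off-drug libraries. It rose by 1.38 ± 0.24 (SE, adjusted p = 0.000143) off drug and by 0.83 ± 0.21 (SE, adjusted p = 0.00231) on drug. H4C11, the second most abundant H4 gene by TPM, read 9.26, 6.37 and 9.35 CPM in parental cells, 6.55, 6.22 and 8.12 CPM off drug and 7.35, 7.35 and 7.30 CPM on drug. All 3 states overlapped, and its differences of -0.26, 0.07 and -0.19 were not called. Without parental replicate 2 it was called lower both off drug (-0.41, adjusted p = 0.0239) and on drug (-0.34, adjusted p = 0.041) against parental cells. On the log2(TPM + 1) scale the on-drug difference from parental cells had the opposite sign, at 0.33 (limma, adjusted p = 0.0303), and that from off drug was 0.41 (limma, adjusted p = 0.0108). H4C12, all of whose sequence stretches lie in H4C11, rose by 2.29 ± 0.50 (SE, adjusted p = 0.000816) on drug over off drug. It had 4, 10 and 5 counts off drug and 20, 59 and 55 on drug, where H4C11 had 165, 152 and 253, and 281, 273 and 282. These 2 genes were not summed, so the H4C12 rise cannot be told from a changed division of shared reads. H4C16, tested only through its on-drug counts, differed by 1.74. H4C9 was called in no comparison with all libraries. Its on-drug difference from off drug, 0.64 ± 0.41 (SE, adjusted p = 0.186), was 1.45 (adjusted p = 0.00391) without off-drug replicate 2, and its difference from parental cells, 0.72, was called when only those 2 states were fitted (0.72, adjusted p = 0.0437).

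Many H2A and H2B genes start back to back and share the stretch between them, which allowed neighbours to be set side by side. In 7 such pairs both genes were tested. Off drug over parental cells both partners were called higher in 1 pair, 1 partner in 3 pairs and neither in 3. On drug over off drug both were called higher in 1 pair, H2BC13 with H2AC13, and 1 partner in the other 6. On drug over parental cells both were in 5 of the 7. Of single genes over all tested, 28.4, 31.4 and 33.4% were called higher in the 3 comparisons. H2AC1, H2BC13 and H2BC17 in these pairs reached the filter's minimum only on drug, so the on-drug pair counts rest partly on that state. H2AC13 also shares 63.8% of its stretches with H2AC14, which was not tested. H2AC17 and H2BC17 rose together off drug, by 1.05 and 1.66, and H2BC13 and H2AC13 stood 2.73 and 1.58 higher on drug than off drug. Between H2BC4 and H2AC6 the starts lie 219 bases apart, most of which the promoter sequence printed for H2BC4 covers, and between H2AC25 and H2BC26 they lie 234 bases apart. Off drug H2BC4 rose by 1.20 while H2AC6 differed by -0.07. On drug over off drug the order turned: H2AC6 rose by 0.51 and H2BC4 differed by -0.02. H2BC26 rose by 2.07 on drug and H2AC25 differed by 0.07, or by 0.33 with library size only and 0.41 on log2(TPM + 1), both called. H2BC11 rose off drug by 1.91, when its partner H2AC11, 292 bases away, differed by 0.21, and on drug H2AC11 rose by 1.02. H2BC21 and H2AC20, 323 bases apart, differed little from each other, at 0.49 and 0.45 on drug over off drug. These are log2 fold changes, and the difference between partners was not tested.

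The factors that express and process histone messages did not move as 1 group. Of 15 genes listed, 9 were higher and 1 lower off drug than in parental cells, and 3 were higher and 4 lower on drug than off drug. Over all genes 28.4% were higher and 26.6% lower in the first comparison, and 31.4% and 31.2% in the second. The on-drug counts of the list thus show no excess of higher or lower calls. SLBP, which binds the stem-loop, read 104, 97.3 and 112 CPM in parental cells, 70.9, 63.5 and 64.4 CPM off drug and 105, 119 and 106 CPM on drug. It was lowest off drug in every library, and its on-drug difference from parental cells was 0.07 ± 0.08 (SE, adjusted p = 0.477). SLBP fell by 0.66 ± 0.09 (SE, adjusted p = 8.67e-06) off drug and rose by 0.73 ± 0.09 (SE, adjusted p = 1.87e-06) on drug. NPAT, the coactivator of histone gene transcription, rose by 0.94 ± 0.13 (SE, adjusted p = 1.59e-05) off drug and differed by -0.11 ± 0.12 (SE, adjusted p = 0.471) on drug. CASP8AP2 (FLASH), which acts in transcription and end processing, rose at both steps, by 0.63 ± 0.10 (SE, adjusted p = 8.41e-05) and 0.83 ± 0.10 (SE, adjusted p = 1.74e-06). MBLAC1, a nuclease assigned to histone pre-mRNA cleavage, rose by 1.85 ± 0.42 (SE, adjusted p = 0.00161) off drug. Its parental libraries, at 0.196, 0.160 and 0.223 CPM, lay below the filter's minimum of 0.315 CPM, so its test depends on the resistant libraries. TUT7, which adds uridines to histone mRNA tails in decay, fell on drug by 1.04 ± 0.14 (SE, adjusted p = 7.29e-06). ZNF473 and CSTF2 rose off drug by 0.80 and 0.78.

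**Figure D5:**
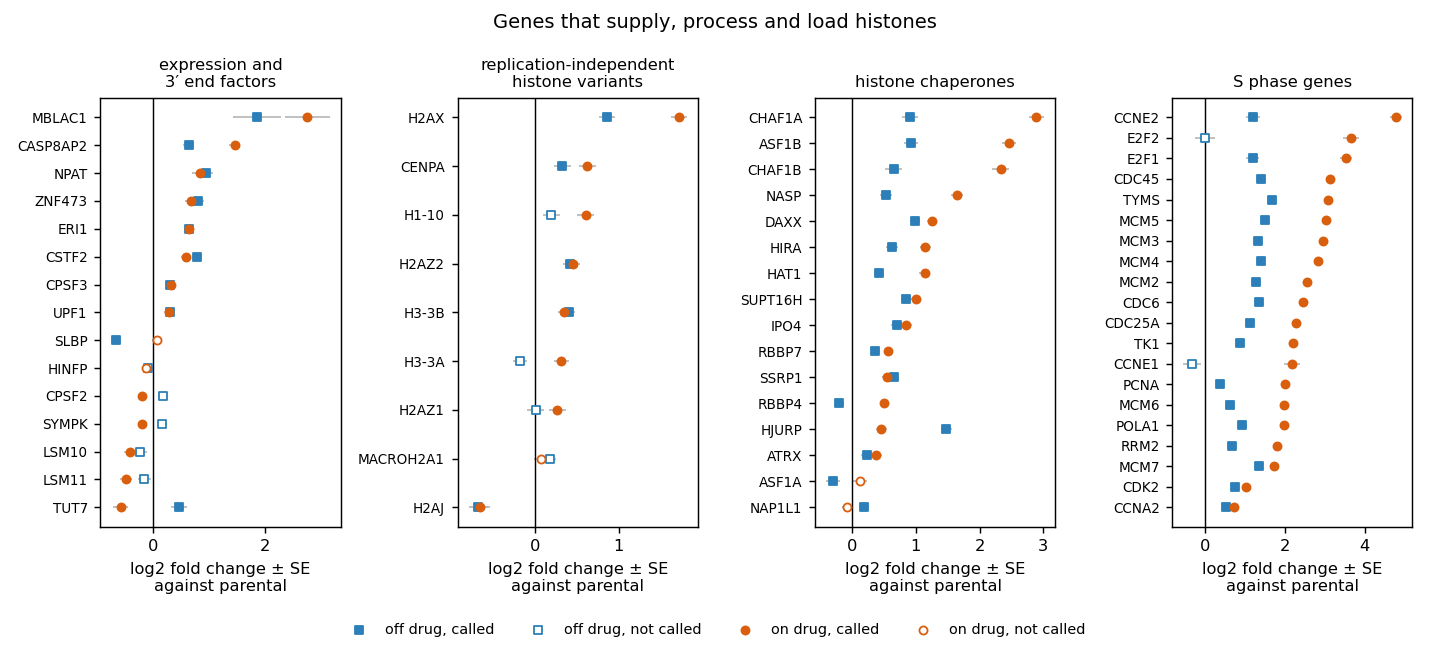
Log2 fold change with SE against parental cells, off drug (squares) and on drug (circles), for the genes of 4 lists that are reported here; filled points were called. All 20 S phase genes lie to the right of 0 on drug, and SLBP is the 1 called point to the left of 0 off drug in the first list.

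Histone variants that are made outside S phase were called in part. Of 10 tested, 4 were higher and 1 lower off drug, and 5 were higher and 0 lower on drug than off drug (by edgeR 0 also at an unadjusted p under 0.05, and 0 by DESeq2). The shares over all genes were 28.4% higher and 26.6% lower off drug, and 31.4% and 31.2% on drug over off drug. H2AX, the variant phosphorylated at DNA breaks, which has both kinds of message end, was the exception in size. It read 67.5, 71.1 and 83.4 CPM in parental cells, 135, 124 and 143 CPM off drug and 239, 229 and 263 CPM on drug, with no overlap between the states, and rose by 0.86 ± 0.09 (SE, adjusted p = 1.40e-06) and then 0.86 ± 0.09 (SE, adjusted p = 7.20e-07). H3-3A rose on drug by 0.49 ± 0.09 (SE, adjusted p = 0.000122), H3-3B rose off drug by 0.40 ± 0.08 (SE, adjusted p = 0.000384), and H2AZ1 rose on drug by 0.26 ± 0.10 (SE, adjusted p = 0.0351), a call lost in 4 of 6 fits that left out 1 library. H2AJ fell off drug by 0.68 ± 0.11 (SE, adjusted p = 0.000111). H2AZ2 and CENPA rose off drug by 0.42 and 0.33, the latter not called without parental replicate 2 (0.24) or off-drug replicate 3 (0.29), and H1-10 rose on drug by 0.41.

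Chaperones that carry new histones to DNA were mostly higher. Of 16, 14 were higher and 2 lower off drug, and 10 were higher and 2 lower on drug than off drug. All genes together had 28.4% higher and 26.6% lower off drug, and 31.4% and 31.2% on drug over off drug. CHAF1A and CHAF1B, subunits of the CAF-1 complex at replication forks, rose on drug by 1.98 ± 0.11 (SE, adjusted p = 4.73e-10) and 1.68 ± 0.12 (SE, adjusted p = 8.99e-09). ASF1B, which hands H3 and H4 to CAF-1, rose by 1.53 ± 0.10 (SE, adjusted p = 1.75e-09), and NASP, which holds the H3 and H4 reserve, by 1.10 ± 0.09 (SE, adjusted p = 3.48e-08). DAXX rose mainly off drug, by 0.99, and HJURP rose off drug by 1.48 and fell on drug by 1.02.

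S phase genes rose at both steps, the first of which left most tested members uncalled. Across all genes 28.4% were called higher and 26.6% lower at the first step, and 31.4% and 31.2% at the second. Of the 20 listed, 18 were higher and 0 lower off drug than in parental cells, and 19 were higher and 0 lower on drug than off drug. At an unadjusted p under 0.05 edgeR put 0 lower in either step, as did DESeq2. Their median log2 fold changes were 1.15 and 1.38. Their summed level was 304 to 316 TPM in parental cells, 602 to 646 TPM off drug and 1558 to 1761 TPM on drug, with no overlap. CCNE2, a cyclin of the entry into S phase, rose on drug by 3.58 ± 0.14 (SE, adjusted p = 3.22e-12), and E2F2 and E2F1, transcription factors of that entry, by 3.67 and 2.34. CCNE1 rose by 2.50 on drug and was not called off drug (-0.33). MCM5, of the replicative helicase, and TYMS, which makes thymidylate, rose off drug by 1.49 and 1.67. The part of the S phase genes in the histone result was not tested, and no cell cycle measurement was analysed here.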

How the data were processed

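Poly(A) RNA was sequenced as pairs of 150-base reads, per the labels' protocols. The build GRCh38.p13 is named in the submitters' processing notes, beside Salmon 0.14.1, bcl2fastq 2.17 and FastQC 0.12.1. The annotation release, strand setting and gene summing were not given in the sources used here. Per gene, the authors deposited estimated counts (expected counts, not scaled) and TPM values (scaled for length and depth). Expected counts were rounded, since the count tests need whole numbers. Columns were matched to samples by name, and symbols by unversioned identifier; H2AC18 and H2AC19 were matched through an older identifier and name. Members and lists were chosen with earlier results of these data known.

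edgeR 4.0.16 (R 4.3.3) was fitted to all 9 libraries with a mean per group, TMM scaling and filterByExpr (minimum count 10, minimum total 15). Quasi-likelihood tests, with 6 residual degrees of freedom, were adjusted by Benjamini-Hochberg over 17307 genes. The SE of a log2 fold change is its size divided by the root of the F statistic. Every tested member is named; values by library are given for up to 3 members per family and the 3 largest called changes per comparison, and for others on which a paragraph turns, chosen after their values were seen. Related genes were named by largest called change, with SLBP, NPAT, H2AX, H2AZ1, H3-3A and H3-3B always. Some listed genes are not reported here. limma 3.58.1, DESeq2 1.42.0 and other scalings, filters and library sets were alternatives. Promoters and gene sequences are from RefSeq (GRCh38.p14) and GENCODE release 29. The steps were tested on simulated data. Depth was 25698500 to 34727826 counts per library, so 3 counts correspond to 0.0864 to 0.117 CPM.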

Additional observations from a re-analysis of the deposited data

How the results depend on the processing

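No called member value changed sign under any alternative. Higher calls off drug over parental cells numbered 10 to 14 when 1 library was left out, and lower calls 1 to 3; on drug over off drug they were 21 to 26 and 2, and on drug over parental cells 26 to 30 and 0 to 1 (1 only without parental replicate 2). Lower calls off drug were 1 with upper-quartile factors, 1 with no filter and 1 with a filter on a mean of at least 100 counts. That last filter, chosen after seeing the data, tested 18 members and gave 8, 12 and 15 higher in the 3 comparisons; fewer members tested accounts for the smaller counts. With library size only, lower calls on drug over off drug were 1.

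Signs changed in differences that had not been called, in 59 alternative fits of single members. Those of members with a mean of at least 10 TPM follow, and the scarcer members are not listed. H2AC6 off drug was 0.15 on either TPM scale, and H4C8 0.025 (log2(TPM + 1)) and 0.027 (log2(TPM + 0.1)). H2BC4 on drug over off drug was 0.11 with upper-quartile factors, 0.23 with library size only, 0.031 with no filter, 9e-04 with at least 50 counts in 3 libraries, 0.22 and 0.23 on the TPM scales and 0.032 with a mean of at least 100 counts. H4C11 on drug over parental cells was 0.038 with library size only and 0.33 on both TPM scales (adjusted p = 0.0303 and 0.0322). With 1 library left out, H4C14 off drug ranged from -0.19 to 0.038. On drug over off drug, H2AC25 ranged from -0.092 to 0.24, H2BC11 from -0.012 to 0.19, H2BC4 from -0.073 to 0.072 and H4C11 from -0.0055 to 0.20. H2BC5 on drug over parental cells ranged from -0.061 to 0.057. The cause was not tested.

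Scaling moved the median of all genes by over 0.1 on drug. With library size only it was 0.27 over off drug and 0.24 over parental cells, and 45 and 20.7% of genes were called higher and lower over off drug (43.9 and 24.4% over parental cells); members were then 27 higher and 1 lower, and 32 and 0. Upper-quartile factors gave 37.9 and 25.2% over off drug, with 26 and 2 members. On log2(TPM + 1) the splits were 33.3 and 18.3% off drug, 38.5 and 21.7% on drug over off drug and 47 and 20.5% over parental cells, with 13 and 0, 26 and 2, and 28 and 0 members.

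With the replicate block the members called higher were 11, 23 and 30. Deviations of same-numbered libraries from their group means had correlations of -0.03 to 0.14 over 9 pairs. Differently numbered ones had -0.10 to 0.07. With 3 libraries per state these values cannot settle whether the numbers pair samples. With current identifiers only, 37 members gave 13, 23 and 29 higher. Limits are poly(A) capture, shared sequence, and low counts: of the 68 members, 24 never reached 10 counts in a library.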
